A study of Mus musculus with 7 samples.

Results

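Benzonase digestion of frozen mouse liver was set against DNase I digestion of liver nuclei, hotspot by hotspot. A hotspot is a stretch of the genome in which the sequenced cut fragments (tags) lie denser than in the background. The deposited Benzonase list held 60910 hotspots and the DNase I list 72286, so that 133196 of the 190871 hotspots in the 3 lists of the series were compared. The remaining list, from the related enzyme Cyanase, was left out. Both lists give positions on the mouse genome mm9, and both were called by the authors on pooled tags. The Benzonase list pools 3 libraries, digested at 0.25, 1 and 4 U/ml, and the header of the DNase I list names 2 pooled libraries, where the labels hold 1 DNase I sample. The DNase I dose, 60 U/ml, comes from the study's methods. All samples were livers of male C57BL/6 mice aged 8 weeks, and the number of mice behind each list is not given in the sources used here. For Benzonase the liver was frozen, pulverized and digested as a whole-tissue suspension in detergent. For DNase I, nuclei were purified from fresh liver through dense sucrose before digestion. Enzyme, preparation and freezing changed together, so their parts in any difference cannot be told apart.

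Regulatory DNA such as promoters and enhancers is held open by transcription factors and chromatin remodelling complexes, and nucleases cut there more often than in packed chromatin. Such nuclease hypersensitive sites mark where a cell type keeps its genes available. Many mammalian promoters lie in CpG islands, which are rich in G and C and open in most tissues. Promoters of genes used by 1 differentiated cell type are more often poor in CpG and depend on factors of that cell type, in liver HNF1, HNF4, FOXA and C/EBP proteins. Hepatocytes make up most of the liver mass, beside Kupffer cells (the resident macrophages), sinusoidal endothelium, stellate cells and bile duct cells. In a bulk digest, a site open in few cells and a site weakly open in all cells cannot be told apart.

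Start sites of 7 genes are shown first, because the base composition around a transcriptional start site (TSS) differed between genes found in one list only. The 300 bases shown run from 250 before to 50 after the TSS, were read from the mm9 genome, and are written in the direction of transcription with each CpG dinucleotide in capitals. Vldlr (a lipoprotein receptor), Traf3 (an adaptor of immune receptors) and Tox (a nuclear protein) had the widest Benzonase hotspots with no DNase I hotspot within 1 kb of a TSS. Omd (an extracellular matrix proteoglycan) and Cxcl9 (a chemokine induced by interferon) were among the 3 widest in the opposite direction. Alb, which encodes serum albumin, lay in both lists. Clec4f, a receptor of Kupffer cells, lay in the DNase I list only and was added after its class was seen.
Vldlr, chr19:27291260-27291559, plus strand: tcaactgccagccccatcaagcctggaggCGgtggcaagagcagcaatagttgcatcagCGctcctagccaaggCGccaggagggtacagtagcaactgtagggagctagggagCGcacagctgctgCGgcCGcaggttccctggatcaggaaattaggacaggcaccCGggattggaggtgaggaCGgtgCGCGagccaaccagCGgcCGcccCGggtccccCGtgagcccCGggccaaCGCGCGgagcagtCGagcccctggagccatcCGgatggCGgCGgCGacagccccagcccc
Traf3, chr12:112404331-112404630, plus strand: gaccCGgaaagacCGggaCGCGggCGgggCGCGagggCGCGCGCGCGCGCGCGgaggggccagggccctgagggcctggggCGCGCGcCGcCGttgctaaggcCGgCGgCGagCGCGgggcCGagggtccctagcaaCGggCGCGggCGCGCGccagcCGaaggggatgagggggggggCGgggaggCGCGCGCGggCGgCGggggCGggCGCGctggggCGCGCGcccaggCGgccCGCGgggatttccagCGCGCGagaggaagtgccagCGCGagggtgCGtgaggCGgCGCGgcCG
Tox, chr4:6917897-6918196, minus strand: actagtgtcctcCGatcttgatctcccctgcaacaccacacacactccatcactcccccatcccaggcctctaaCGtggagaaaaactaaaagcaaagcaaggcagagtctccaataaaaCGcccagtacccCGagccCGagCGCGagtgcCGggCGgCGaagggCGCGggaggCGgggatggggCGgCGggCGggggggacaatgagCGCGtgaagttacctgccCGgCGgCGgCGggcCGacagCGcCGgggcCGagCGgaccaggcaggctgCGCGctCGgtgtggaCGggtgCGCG
Alb, chr5:90889665-90889964, plus strand: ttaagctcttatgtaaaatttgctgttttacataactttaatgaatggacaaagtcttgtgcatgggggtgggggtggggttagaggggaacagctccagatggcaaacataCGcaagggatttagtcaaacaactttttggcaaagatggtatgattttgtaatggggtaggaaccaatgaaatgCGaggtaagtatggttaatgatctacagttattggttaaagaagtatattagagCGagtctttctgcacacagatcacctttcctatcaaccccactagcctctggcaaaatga
Omd, chr13:49677885-49678184, plus strand: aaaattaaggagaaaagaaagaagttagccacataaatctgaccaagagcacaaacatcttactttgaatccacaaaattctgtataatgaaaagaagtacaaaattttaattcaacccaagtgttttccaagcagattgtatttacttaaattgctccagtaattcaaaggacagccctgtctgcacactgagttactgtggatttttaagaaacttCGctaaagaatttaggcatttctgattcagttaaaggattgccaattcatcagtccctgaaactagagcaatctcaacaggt
Cxcl9, chr5:92757056-92757355, minus strand: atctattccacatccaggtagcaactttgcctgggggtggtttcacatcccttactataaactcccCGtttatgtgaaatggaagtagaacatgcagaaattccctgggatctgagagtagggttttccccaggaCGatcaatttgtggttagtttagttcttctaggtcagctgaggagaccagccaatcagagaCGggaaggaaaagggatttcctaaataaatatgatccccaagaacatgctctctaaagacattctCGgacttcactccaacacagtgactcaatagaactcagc
Clec4f, chr6:83606132-83606431, minus strand: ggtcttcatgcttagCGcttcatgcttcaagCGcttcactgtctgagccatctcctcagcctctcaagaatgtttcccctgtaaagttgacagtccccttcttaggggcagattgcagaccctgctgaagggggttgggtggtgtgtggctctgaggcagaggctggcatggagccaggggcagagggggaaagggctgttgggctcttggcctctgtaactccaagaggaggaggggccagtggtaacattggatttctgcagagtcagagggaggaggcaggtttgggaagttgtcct
The windows of Traf3, Tox and Vldlr held 59, 33 and 23 CpG dinucleotides. Those of Cxcl9, Alb, Clec4f and Omd held 4, 3, 2 and 1. GC content was 84.0% at Traf3, 68.0% at Vldlr and 67.7% at Tox, against 34.3% at Omd, 40.3% at Alb and 44.3% at Cxcl9. Clec4f, with few CpG dinucleotides, had 56.3%.

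The deposited lists hold a chromosome, a start and an end for each hotspot and no tag number, so the tags behind a single hotspot could not be used. There is 1 pooled list per enzyme, with no replicates and no test. Shares carry 95% Wilson intervals and medians carry 95% order-statistic intervals, which cover counting error only. Hotspots were 652 bp wide at the median in the Benzonase list and 649 bp in the DNase I list, and the narrowest was 251 bp in both.

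Most hotspots of either list overlapped the other by at least 1 bp. Of the Benzonase hotspots, 42200 (69.3%, interval 68.9 to 69.7%) had a DNase I partner and 18710 had none. Of the DNase I hotspots, 43626 (60.4%, interval 59.99 to 60.7%) had a Benzonase partner and 28660 had none. The Benzonase list covered 48.1 megabases and the DNase I list 51.8 megabases, of which 31.2 megabases lay in both. The shared bases were 64.9% of the Benzonase bases, 60.2% of the DNase I bases and 45.4% of the bases covered by either list. On autosomes the share of Benzonase hotspots with a partner ran from 67.0% on chromosome 12 to 74.1% on chromosome 19, and that of DNase I hotspots from 56.3% on chromosome 3 to 66.6% on chromosome 19. Chromosome X was lower in both lists, with 49.5% of 1803 Benzonase hotspots and 41.2% of 2279 DNase I hotspots. On chromosome Y, 64 of 67 Benzonase hotspots and 55 of 110 DNase I hotspots had a partner.

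Wide hotspots were shared more often than narrow ones. In the narrowest quartile of the Benzonase list, up to 482 bp, 33.3% had a partner (interval 32.5 to 34.0%), and in the widest quartile, from 946 bp, 92.4% did (91.9 to 92.8%). In the DNase I list the narrowest quartile, up to 537 bp, stood at 28.3% (27.6 to 28.9%) and the widest quartile, from 806 bp, at 92.1% (91.7 to 92.5%). The quartiles between them held 66.2% and 85.4% in the Benzonase list, and 46.8% and 74.5% in the DNase I list. The intervals of the lists overlapped in the widest quartile, and the shares were furthest apart in the quartile just below the median (intervals 65.5 to 67.0% and 46.1 to 47.5%). Width can stand in only partly for tag density, which the lists do not give.

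Position in the genome set the lists apart in opposite ways. Each hotspot was placed in the first class it touched, with promoters (from a protein-coding TSS to 2 kb upstream) taken first, then exon, intron, downstream (2 kb past the transcript end) and distal. At promoters, 90.1% of 13383 DNase I hotspots had a Benzonase partner (89.6 to 90.6%), against 78.8% of 14887 Benzonase hotspots with a DNase I partner (78.1 to 79.4%). In exons the order was the same, 66.6% for DNase I and 54.6% for Benzonase. In the other classes it turned around. Benzonase hotspots had a partner in 72.2% of intronic, 69.8% of downstream and 63.5% of distal cases, and DNase I hotspots in 54.2%, 59.8% and 50.1%. Numbers with a partner were close, 12059 DNase I and 11725 Benzonase hotspots at promoters and 13097 and 13121 in distal DNA. In each class the list with more hotspots had the lower share, so the order followed the class sizes. Promoters held 16.9% of the Benzonase hotspots without a partner and 4.62% of the DNase I hotspots without one. The plot of shares by width and class shows both patterns.

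**Figure D1:**
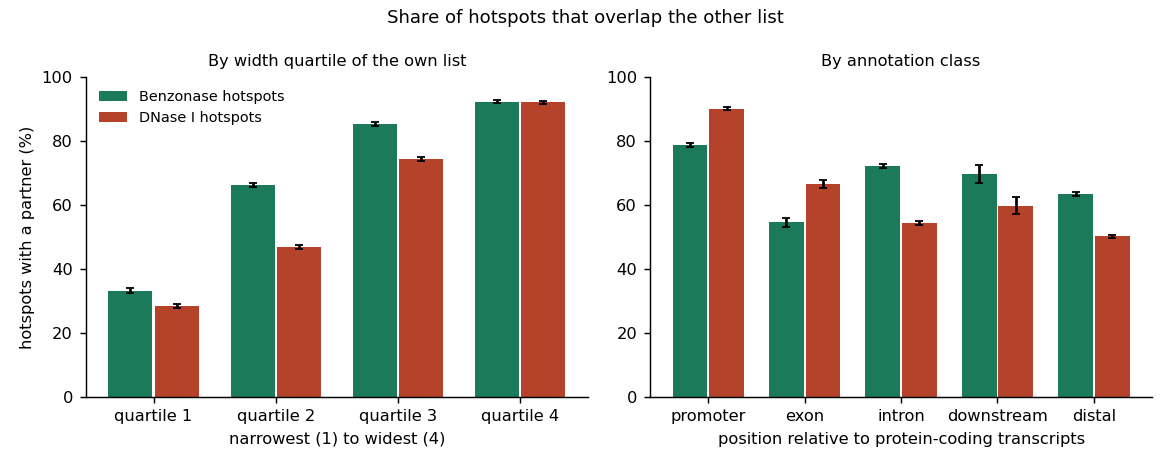
Share of hotspots (%) that overlap the other list by at least 1 bp, by width quartile of the own list (left) and by annotation class (right), for Benzonase (green) and DNase I (red). Bars start at 0 and error bars are 95% Wilson intervals for counting error. The share climbs from 33.3% to 92.4% across Benzonase quartiles and from 28.3% to 92.1% across DNase I quartiles, and only promoters and exons have a higher share in the DNase I list.

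Hotspots without a partner were rarely near misses. The median gap from an unpaired Benzonase hotspot to the nearest DNase I hotspot was 10340 bp (quartiles 2239 and 38720 bp), and 2.81% lay within 150 bp and 15.6% within 1 kb. For unpaired DNase I hotspots the median gap was 8831 bp (quartiles 2253 and 27660 bp), with 2.62% within 150 bp and 14.6% within 1 kb. Promoters were the exception in one direction. An unpaired DNase I hotspot at a promoter had a Benzonase hotspot 1142 bp away at the median, and 46.2% of the 1324 had one within 1 kb. An unpaired Benzonase hotspot at a promoter had its nearest DNase I hotspot 8286 bp away, and 18.03% of the 3162 had one within 1 kb.

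Where the lists met, they met mostly one to one. Overlapping hotspots formed 41175 groups with members of both lists, of which 38195 (92.8%) were 1 Benzonase hotspot and 1 DNase I hotspot. Within these matched pairs the width ratio, Benzonase over DNase I, had a median of 1.001 (interval 0.999 to 1.004, quartiles 0.835 and 1.23). Midpoints were 51 bp apart at the median, with quartiles of 22 and 111 bp. In 90.0% of pairs the overlap took up at least 50% of both hotspots. The Benzonase hotspot lay inside its DNase I partner in 31.9% of pairs, and the reverse held in 31.2%.

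The median ratio near 1 joined pairs of different kinds. At promoters (9805 pairs) Benzonase hotspots were wider, 1155 against 803 bp at the median, with a ratio of 1.31 (1.30 to 1.32), and the DNase I hotspot lay inside the Benzonase hotspot in 56.8% of pairs. In introns (12784 pairs) the ratio was 0.934 (0.930 to 0.939), and in distal pairs (12274) it was 0.943 (0.938 to 0.948). There the Benzonase hotspot was the nested one in 41.4% and 40.3% of pairs. The ratio also moved with base composition, both at promoters and over all other pairs. When pairs were split into quartiles by the GC content of the bases both hotspots cover, the ratio away from promoters rose from 0.844 (0.838 to 0.849) at a GC content of up to 45.1% to 1.19 (1.18 to 1.21) above 54.6%. At promoters it rose from 0.877 (0.861 to 0.893, 558 pairs) to 1.45 (1.44 to 1.46, 6554 pairs) over the same quartiles. Promoter pairs had the higher ratio in each of the 4 quartiles.

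**Figure D2:**
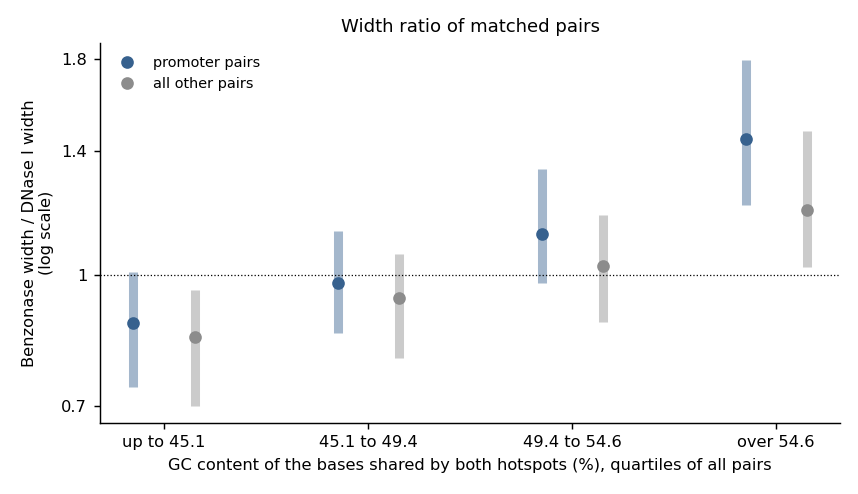
Width ratio of matched pairs (Benzonase width over DNase I width, log scale) by quartile of the GC content of the bases both hotspots cover, for promoter pairs (blue) and all other pairs (grey). Points are medians, bars span the quartiles of the pairs, and the dotted line marks equal width. The medians climb from 0.877 to 1.45 at promoters and from 0.844 to 1.19 elsewhere.

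The bases that only 1 enzyme covered within a pair differed in composition. Bases covered by both hotspots of a pair had a GC content of 51.0%. The 6.00 megabases covered by the Benzonase hotspot alone had 55.1%, and the 4.18 megabases covered by the DNase I hotspot alone had 42.3%. In 4489 pairs each hotspot reached at least 50 bp past the other on opposite sides, so that the extensions could be set against each other. The Benzonase extension had the higher GC content in 78.0% of them (76.8 to 79.2%), by 7.89 percentage points at the median. This held in each annotation class, from 72.6% of intronic pairs to 84.6% of promoter pairs.

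Pairs that held TSSs of a single strand showed on which side the hotspots differed. Pairs with TSSs on both strands were left out, and reach was measured from the 5′-most TSS that both hotspots held. Upstream of the TSS the edges were close, with a reach of 494 bp for Benzonase and 440 bp for DNase I at the median over 7348 pairs, and a median difference within pairs of 36 bp (33 to 38 bp). Downstream the Benzonase hotspot reached 666 bp and the DNase I hotspot 335 bp, with a median difference of 224 bp (216 to 232 bp). Benzonase reached further downstream in 86.7% of pairs and further upstream in 66.0%. A TSS was called CpG-rich when its 300-base window had a GC content of at least 55% and an observed to expected CpG ratio of at least 0.6. At 4143 pairs with a CpG-rich TSS the downstream difference was 312 bp (299 to 321 bp), and at 3205 other pairs it was 139 bp (130 to 147 bp). The upstream differences were 60 and 10 bp. The excess over the DNase I hotspot was thus larger downstream than upstream in both kinds of promoter.

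The same shape appeared when every gene was counted, whether or not it had a pair. Taking the 5′-most TSS of each gene, 8512 genes had a CpG-rich TSS and 13853 did not. Benzonase hotspots covered up to 89.6% of the CpG-rich genes, highest 25 bp downstream of the TSS, and kept at least 50% of that cover from 575 bp upstream to 725 bp downstream. DNase I hotspots covered up to 72.7%, highest 125 bp upstream, and kept 50% of that from 475 bp upstream to 325 bp downstream. At the other genes the highest cover was 32.8% for Benzonase and 26.9% for DNase I. Their upstream borders coincided at 375 bp, and the downstream borders lay at 725 and 375 bp. The profile plot shows the DNase I curve falling away sooner on the transcribed side in both panels.

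**Figure D3:**
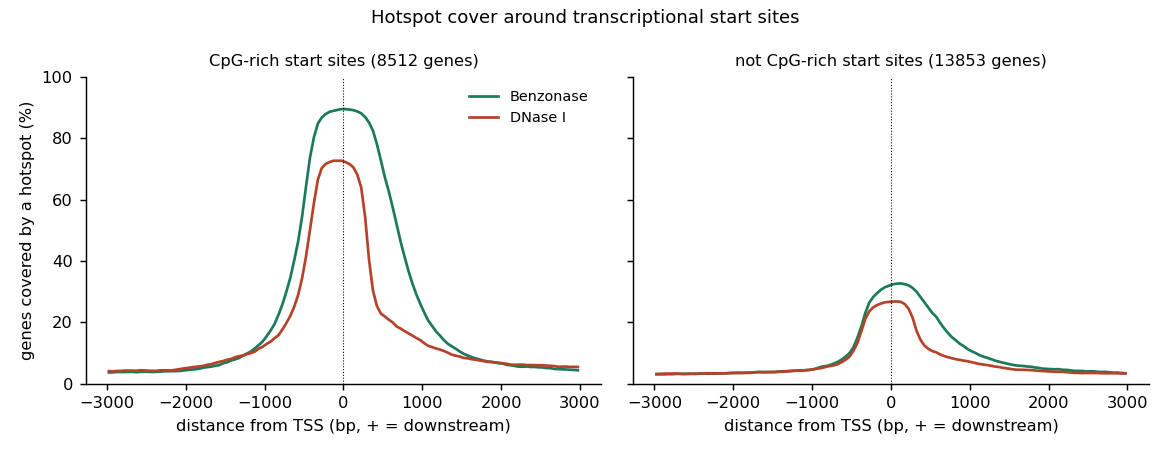
Share of genes (%) covered by a hotspot in 50 bp bins from 3 kb upstream to 3 kb downstream of the 5′-most TSS, for Benzonase (green) and DNase I (red), at CpG-rich TSSs (left, 8512 genes) and other TSSs (right, 13853 genes). Peaks are 89.6% and 72.7% on the left and 32.8% and 26.9% on the right, and the Benzonase curve extends further downstream in both panels.

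A minority of hotspots spanned several hotspots of the other list, and these differed between the lists in base composition, width and position. Their composition was not separated from promoter position. In 1996 groups 1 Benzonase hotspot met several DNase I hotspots, in 728 groups 1 DNase I hotspot met several Benzonase hotspots, and 256 groups held several of each. Benzonase hotspots with 2 or more partners (2266, 3.72% of the list) had a median width of 1802 bp and a GC content of 57.2%, and 71.0% of them lay at promoters. DNase I hotspots with 2 or more partners (992, 1.37%) had a median width of 1399 bp and a GC content of 46.0%, and 22.5% lay at promoters. The gaps that were bridged followed the same order. The 2431 gaps between DNase I hotspots that a Benzonase hotspot covered were 162 bp long at the median, with a GC content of 59.5%, and 66.5% had more GC than the hotspot around them. The 1008 gaps between Benzonase hotspots that a DNase I hotspot covered were 84 bp long, with 42.3% GC, and 29.9% had more GC than the hotspot around them.

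The hotspots with the most partners named single loci. In the Benzonase list the widest hotspot of all, 10264 bp at chr16:3231407-3241670, held 7 DNase I hotspots and lay 355860 bp from the nearest TSS (Olfr161). Foxo3, which encodes a forkhead transcription factor of stress and fasting, had a Benzonase promoter hotspot of 5080 bp with 5 partners, and Gadd45g, a growth arrest gene, one of 4710 bp with 5 partners. Benzonase hotspots over Atg4a, an autophagy protease gene, and at the promoter of Phf15 had 4 partners each. In the DNase I list, a hotspot of 4984 bp at chr8:112520298-112525281 over the 3′ end of Tat, the gene of the hepatic tyrosine aminotransferase, held 4 Benzonase hotspots. Of the other 4 DNase I hotspots named by this rule, 3 lay on chromosome Y and 1 lay 148156 bp from the TSS of Tssc1. Chromosome Y and olfactory receptor regions hold near-identical copies. The study describes the tags of its frozen-tissue digests as aligning uniquely, and no such statement was found for DNase I.

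The 5 most unequal matched pairs in each direction were taken by rule, so their equal numbers are not a result. At Alas1, the first enzyme of heme synthesis, a Benzonase hotspot of 3930 bp held a DNase I hotspot of 323 bp, a ratio of 12.2. The next were Tox (3125 against 336 bp), Olfm1 (2230 against 251 bp), Slc16a11 (2187 against 251 bp) and Rbpms2 (2348 against 273 bp). In the other direction, a DNase I hotspot of 1550 bp over Fndc3b met a Benzonase hotspot of 258 bp, a ratio of 0.167. Zbtb20, a transcription factor gene that represses Afp in liver, had 1405 bp against 264 bp. Pairs 28302 bp from Dkk3, 84637 bp from Commd3 and 28407 bp from Rhox2h completed the set.

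Unpaired hotspots of the lists stood at opposite ends of the GC range. Benzonase hotspots without a partner had a median GC content of 54.8% (54.7 to 54.9%), above the 49.5% of Benzonase hotspots with one. DNase I hotspots without a partner had 42.5% (42.4 to 42.5%), below the 49.2% of those with one. Set against 5 kb on either side, 96.0% of unpaired Benzonase hotspots and 45.9% of unpaired DNase I hotspots had more GC than their surroundings. In distal DNA the medians were 53.0% and 42.1%. The observed to expected CpG ratio of unpaired distal hotspots was low in both, 0.169 for Benzonase and 0.171 for DNase I, so that there the lists differed in GC content and hardly in CpG depletion.

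Short sequence motifs of transcription factors were counted in the central 200 bp of each hotspot on both strands, with windows of equal length 5 kb to either side as background. The letters searched were GTTAATNAT for HNF1, CAAAGTCCA for HNF4, TGTTTAC for FOXA, TTGCNNAA for C/EBP and TGANTCA for AP-1. The other motifs were GGGCGG for SP1, GCGCATGC for NRF1, CCGGAAGT for ETS, TGACGTCA for CRE, CACGTG for the E-box, CCAAT for NFY, TATAAA for TATA, GGTCANAGG for nuclear receptors, ACANNNTGT for the glucocorticoid receptor, and CNAGGTGGC or CNAGGGGGC for CTCF. A match is a run of letters and not a bound site. Letters rich in A and T are found more often in AT-rich hotspots, and letters rich in G and C in GC-rich ones.

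Motifs of the liver factors HNF1, HNF4, FOXA and C/EBP were at or below their flanks in unpaired Benzonase hotspots and above them in the other hotspots. The 5 kb beside unpaired Benzonase hotspots had a median GC content of 45.3%, against 54.8% in the hotspots. Flanks thus did not hold base composition fixed. The HNF4 letters stood in 1.76% of unpaired DNase I hotspots (1.62 to 1.92%), against 0.271% of their flanks. They stood in 0.315% of unpaired Benzonase hotspots (0.245 to 0.406%), against 0.305% of flanks. Hotspots with a partner held them in 1.54% (Benzonase) and 1.63% (DNase I). The same letters written backwards were chosen as a control after the motif shares were seen. They occurred in 0.182% of unpaired Benzonase (0.130 to 0.254%) and 0.209% of unpaired DNase I hotspots, below the forward share in both. HNF1 gave 2.21% in unpaired DNase I and 0.240% in unpaired Benzonase hotspots, with flanks at 0.656% and 0.519%, and its backwards letters gave 0.733% and 0.139%, in the same order. For C/EBP, where backwards letters are not given, the shares were 19.4% and 5.66%, with flanks at 8.87% and 8.38%. For FOXA they were 7.27% and 2.07%, with flanks at 3.14% and 2.84%. The backwards FOXA letters reached 5.59% in unpaired DNase I hotspots (5.33 to 5.86%), below the forward share (6.97 to 7.57%). In unpaired Benzonase hotspots they reached 1.98%, near the forward share. For the glucocorticoid receptor the backwards letters reached 7.51% against 7.64% forward, and for TATA they reached 19.7% against 12.6%.

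Most motifs with the reverse order were rich in G and C, while the CRE letters hold as many A and T as G and C. The nuclear receptor letters hold more G and C than A and T. They nevertheless stood in 2.74% of unpaired DNase I and 1.92% of unpaired Benzonase hotspots. SP1, a ubiquitous activator that binds GC boxes, had its letters in 17.4% of unpaired Benzonase hotspots (16.9 to 17.98%), near the 17.9% of paired ones, and in 2.08% of unpaired DNase I hotspots, below the flanks at 2.38%. CTCF, which anchors chromatin loops, had letters in 4.32% of unpaired Benzonase hotspots (4.04 to 4.63%) and 1.62% of unpaired DNase I hotspots, against 2.42% and 2.70% of paired ones and about 1% of flanks (1.10% and 0.908%). Over the whole hotspot the CTCF share in unpaired Benzonase hotspots was 8.87%, against 9.56% and 7.99% in paired Benzonase and DNase I hotspots, which are wider. Away from promoters SP1 too was more frequent in unpaired Benzonase hotspots, at 10.2% against 6.78% and 6.38% in paired ones. Backwards letters are not given for SP1 or CTCF, so what base composition adds to their shares was not tested. ETS, NRF1 and CRE letters, found at promoters of widely used genes, were most frequent in paired hotspots, with ETS at 1.53% and 1.73% there against 0.449% and 0.265% in unpaired Benzonase and DNase I hotspots. Of the 15 motifs, 9 were more frequent in unpaired DNase I hotspots and 6 in unpaired Benzonase hotspots. For 14 the order was the same over the whole hotspot and away from promoters, and CRE changed sides away from promoters.

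**Figure D4:**
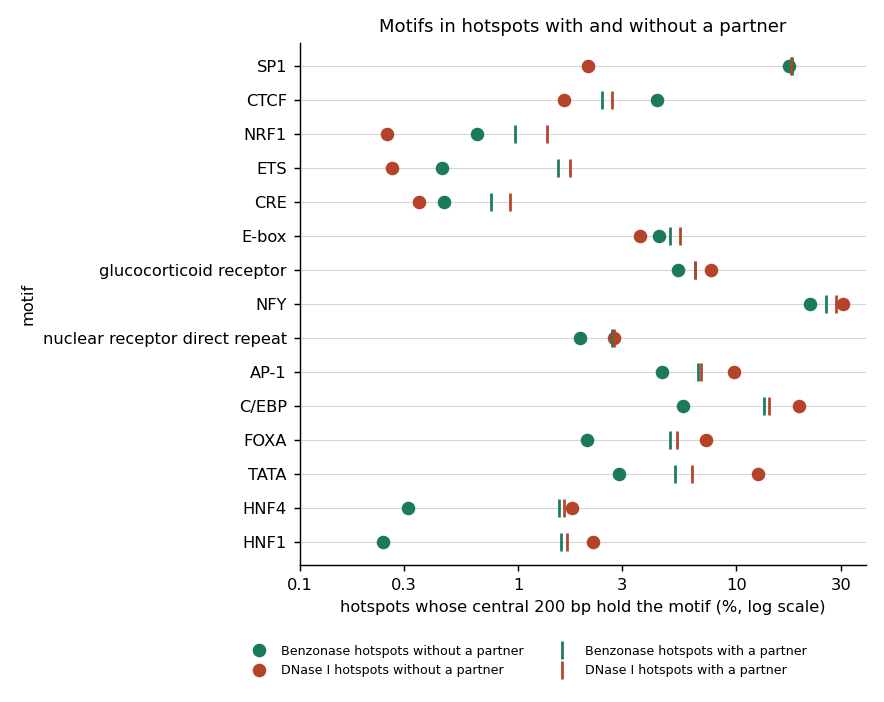
Share of hotspots (%, log scale) whose central 200 bp hold the letters of each motif on either strand, for hotspots without a partner (circles) and with a partner (ticks), Benzonase green and DNase I red. Motifs are ordered by the ratio of the unpaired shares. HNF1 and HNF4 lie at 0.240% and 0.315% in unpaired Benzonase hotspots and at 2.21% and 1.76% in unpaired DNase I hotspots, and SP1 lies at 17.4% and 2.08%.

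Genes were then classed by whether any TSS of a protein-coding transcript lay inside a hotspot. Of 22365 genes, 10379 (46.4%) had a TSS in both lists, 2462 (11.0%) in the Benzonase list only, 220 (0.984%) in the DNase I list only, and 9304 (41.6%) in neither. For 10356 of the genes in both lists a single TSS lay in both. The TSS windows had a median GC content of 60.7% for genes in both lists and 64.3% for Benzonase only, against 44.3% for DNase I only and 47.7% for neither. CpG-rich TSSs made up 62.9% of the genes in both lists, 59.7% of Benzonase only, 4.09% of DNase I only (9 genes) and 8.56% of neither. Among the 13565 genes without a CpG-rich TSS by the window taken here, 993 (7.32%) were Benzonase only and 211 (1.56%) DNase I only. For DNase I only genes that window was at a TSS inside the hotspot, which need not be the 5′-most. The count therefore differs from that by 5′-most TSS, and the window was not chosen independently of the class. The nearest hotspot of the other list lay 6946 bp from the TSS at the median for Benzonase only genes and 8162 bp for DNase I only genes, and within 1 kb for 606 and 56 of them. A hotspot that held the TSS of a one-list gene could still touch the other list elsewhere. With the widest TSS hotspot of each gene taken, this was so for 444 of the 2462 Benzonase only genes and 32 of the 220 DNase I only genes.

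The chosen hepatocyte groups lay almost wholly in both lists. All 7 hepatocyte markers (Alb, Ttr, Apoa1, Serpina1a, Hnf4a, Cps1 and Tat) had a TSS in both, so that each list matched the labelled tissue. So did all 20 liver transcription factors, all 27 metabolic enzymes and 23 of 24 genes of secreted liver proteins, where Trf has 2 gene identifiers. The gene left out was Afp, the fetal counterpart of albumin, which lay in neither list and had its nearest DNase I hotspot at 4581 bp and its nearest Benzonase hotspot at 12225 bp. With the 5′-most TSS of each gene alone, 22 of the 27 metabolic enzymes and 22 of the 24 secreted protein genes kept their class. Hepatocyte genes outside these groups were found in the DNase I list only, among them Baat (bile acid conjugation), Afm (a serum protein) and Hc (complement C5), picked out after the list was seen. Their TSSs lay 3556, 85 and 663 bp from the nearest Benzonase hotspot, so that Afm and Hc were near one. At Alb the hotspots were nearly of one size, 849 bp for Benzonase and 892 bp for DNase I. At the TSS of Tat they were 871 and 970 bp. Marveld3, next to Tat, lay in the Benzonase list only, in a hotspot of 708 bp whose TSS was 7982 bp from the nearest DNase I hotspot. The background to these counts is the 46.4% of all genes found in both lists.

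Markers of Kupffer cells and macrophages were mostly in the DNase I list only. Of 8 markers found, 6 had a TSS in a DNase I hotspot and in no Benzonase hotspot, 1 (Emr1, which encodes F4/80) lay in both and 1 (Vsig4, a complement receptor) in neither, beside the 0.984% of all genes and the 1.56% of genes without a CpG-rich TSS that were DNase I only. The 6 were Clec4f, the phagocyte receptors Timd4, Marco and Cd68, the macrophage protein Cd5l, and Csf1r, the receptor on which macrophages depend. Their DNase I hotspots were 497 to 683 bp wide. The nearest Benzonase hotspot lay 1609 bp from the TSS of Csf1r, 1908 bp from Cd68, 12457 bp from Clec4f, 25083 bp from Timd4, 53139 bp from Cd5l and 135787 bp from Marco. Over the gene bodies of the 8 markers and 10 kb on either side there were 25 DNase I and 10 Benzonase hotspots. At Emr1 the hotspots were 595 bp for DNase I and 438 bp for Benzonase. None of the 8 had a CpG-rich TSS, and their median GC content was 46.7%.

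A wider list of 31 myeloid genes, written after these values were seen, gave 6 DNase I only, 1 Benzonase only, 5 in both and 19 in neither. The 6 were C1qa (complement), Lyz2 (lysozyme), Msr1 (a scavenger receptor), Cybb (the phagocyte oxidase), Mpeg1 and Cd53, and the other was Coro1a, whose TSS window had 68.3% GC. C1qb, C1qc, Mrc1, Lcp1 and Irf8 lay in both. The loci of this list held 103 DNase I and 61 Benzonase hotspots. Ptprc, the leukocyte antigen CD45, was also DNase I only, while the other 6 lymphocyte markers lay in neither list. The letters GAGGAAGT, the core of sites for the myeloid factor PU.1, were added on the same ground. They stood in 2.70% of unpaired DNase I hotspots (2.52 to 2.90%) and 2.10% of unpaired Benzonase hotspots (1.91 to 2.32%), with flanks at 1.25% and 1.19%. Written backwards they stood in 0.858% and 1.88%, so that in unpaired Benzonase hotspots the forward and backward shares had overlapping intervals (backward 1.70 to 2.09%).

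No marker of sinusoidal endothelium or stellate cells lay in both lists, and Dcn alone was DNase I only. Of 7 sinusoidal endothelial markers, 4 were Benzonase only (Cdh5, Stab1, Clec4g and Kdr) and 3 in neither (Stab2, Lyve1 and Pecam1), beside 11.0% of all genes that were Benzonase only. The TSS of Kdr, the main VEGF receptor, lay 2 bp from a DNase I hotspot, while those of Clec4g, Stab1 and Cdh5 lay 1731, 3985 and 8869 bp from one. Of these 7 genes 1 had a CpG-rich TSS. The loci of the 7 held 49 Benzonase and 47 DNase I hotspots, nearly equal numbers. Of 7 stellate cell markers, 3 were Benzonase only (Lrat, which stores vitamin A as ester, Pdgfrb and Reln), 1 was DNase I only (Dcn) and 3 lay in neither. Lists of 30 endothelial and 20 stellate genes, written after these values were seen, had 12 and 8 genes in the Benzonase list only, 12 and 4 in both, and 1 (Erg) and 0 in the DNase I list only. Median GC content was 52.3% for the sinusoidal markers and 61.0% for the stellate markers. Bile duct markers gave Sox9 in both, Krt19 in the Benzonase list only and 4 in neither. The 5 erythroid, 5 neuronal and 5 muscle markers lay in neither list. Whether the cell types present in each preparation, the enzyme or the base composition of these promoters account for the counts was not tested.

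**Figure D5:**
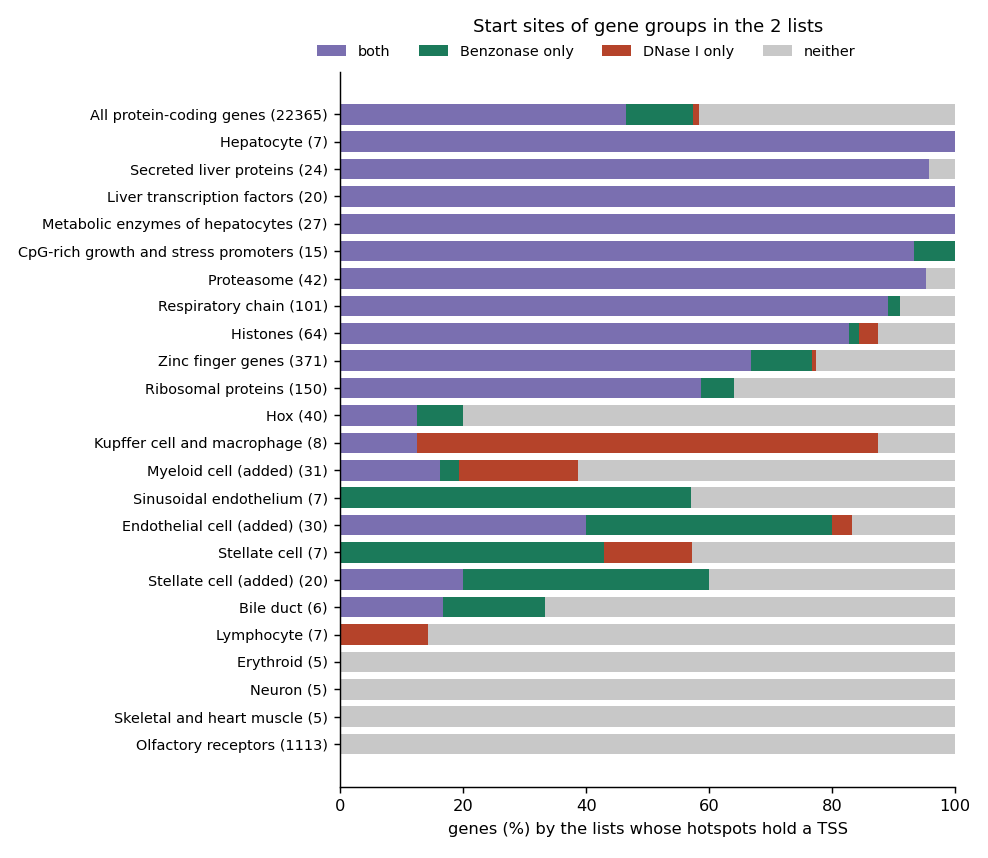
Share of genes (%) in each group by the lists whose hotspots hold a TSS: both (purple), Benzonase only (green), DNase I only (red) or neither (grey), with the number of genes in brackets. Bars start at 0 and "added" marks lists written after values were seen. Kupffer cell markers stand out with 6 of 8 DNase I only, against 0.984% of all 22365 genes, and hepatocyte groups lie almost wholly in both.

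Gene families are set against the shares over all genes, 46.4% in both, 11.0% Benzonase only and 0.984% DNase I only. Of 42 proteasome genes 40 (95.2%) lay in both and 2, Psma8 and Psmb11, which serve testis and thymus, in neither. Of 101 respiratory chain genes 90 (89.1%) lay in both, 2 (Atp5f1 and Ndufa13) in the Benzonase list only and 9 in neither. Of 150 genes named as ribosomal proteins 88 (58.7%) lay in both, 8 in the Benzonase list only and 54 in neither. By its naming rule this group also takes in kinases such as Rps6ka1 and retrocopies. The 8 were Rps6ka1, Rps6ka4, Rps6ka6, Rps6kl1, Rpl10l, Rpl21-ps3, Rpl35 and Rps4x, so that they were largely such added members. With a TSS allowed within 500 bp of a hotspot, 3 genes of the group were Benzonase only and 1 DNase I only. Of 15 growth and stress genes 14 lay in both, and Sqstm1, an autophagy receptor, was Benzonase only, with its TSS at the edge of a DNase I hotspot. The class of Sqstm1 turns on whether the deposited starts count from 0, as taken here, or from 1, when its TSS would lie in both. Among 371 zinc finger genes named Zfp, 248 (66.8%) lay in both, 37 (9.97%, near the share of all genes) in the Benzonase list only and 2 in the DNase I list only. Of 64 histone genes 53 (82.8%) lay in both, and Hist2h2aa1 and Hist2h3c1 were DNase I only, but histone genes have near-identical copies. Both TSSs lay in the same DNase I hotspot of 811 bp, 50 and 66 bp from a Benzonase hotspot. With a TSS allowed within 500 bp of a hotspot, 0 histone genes were DNase I only. The Hox genes, which pattern the embryo, had 5 of 40 in both, 3 (Hoxa4, Hoxc10 and Hoxd1) Benzonase only and 32 in neither. Of 1113 olfactory receptor genes 1112 lay in neither.

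The widest one-list hotspots added genes of other kinds. After Tox (3125 bp), Vldlr (2956 bp) and Traf3 (2843 bp), the Benzonase only genes with the widest hotspots were Fbxl14, Sulf2, Pde3b, Cbfa2t3, Zbtb46, Arhgef17 and Plxna1, at 2382 to 2565 bp, and 9 of the 10 had a CpG-rich TSS. The TSS of Tox lay 1675 bp from a DNase I hotspot of 336 bp that falls inside the same Benzonase hotspot. On the DNase I side the genes so chosen included Omd (1291 bp), Cxcl9 (1040 bp), and Kdm5d, Tmem156, Rgag1, C1qa, Hk3, Tlr12 and Cd36, at 780 to 983 bp, and none of those named had a CpG-rich TSS. The 220 DNase I only genes also held 7 Mup genes, which encode the major urinary proteins of male liver, and 7 cytochrome P450 genes (Cyp2c44, Cyp2c55, Cyp2c69, Cyp2d9, Cyp4a12a, Cyp4a12b and Cyp4a31). The Mup and P450 genes were picked out after the list was seen, beside the 0.984% of all genes that were DNase I only. Shares over their whole families are not given here. The P450 genes among the metabolic enzymes (Cyp7a1, Cyp8b1, Cyp27a1, Cyp2e1, Cyp1a2, Cyp3a11 and Cyp2c29) lay in both lists. Mup genes are near-identical copies whose tags are hard to place, as are some of the P450 genes, so the class of such copies is uncertain.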

How the data were processed

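Mouse liver chromatin was digested with Benzonase (frozen tissue) or DNase I (nuclei), and fragments of the digests were sequenced. Tags were mapped to mm9 by the authors, using Eland or Bowtie, and libraries of an enzyme were combined before hotspot calling, which per the file headers allowed 0% false discoveries. The study's methods add a threshold on tag density, but the lists do not hold the numbers of hotspots that the study counts, so this setting may not be that of these lists. The deposited values are positions (chromosome, start and end). They hold no counts. The study states a depth per frozen-tissue library, but the tags behind a hotspot, and so the precision of a call, are not known from these lists. There were 0 columns of other samples.

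Hotspots were compared at an overlap of at least 1 bp. TSSs came from GENCODE release M1 and bases from NCBIM37, whose chromosome lengths match mm9. This sequence is not masked, so repeats were not analysed here. Printed coordinates count from 1. Whether the deposited starts count from 0 or 1 is not stated, which can move an edge by 1 bp. A gene counted for a list when at least 1 TSS of a protein-coding transcript lay in a hotspot. Genes named were the members of the gene lists, the 10 one-list genes in each direction with the widest TSS hotspot and no hotspot of the other list within 1 kb (predicted models left out), the 5 hotspots of each list with the most partners, the 5 most unequal pairs in each direction, and Tat and Marveld3. A gene that this rule chose is not reported here. Members and lists were chosen with earlier results of these data known. Adgre1 and Spi1 were not found under these symbols. Overlaps, pairing, gaps and TSS classes were tested on simulated lists. Python 3.11.15, numpy 2.4.6, pandas 2.3.3, scipy 1.17.1 and matplotlib 3.10.9 were used. Alternatives were other overlap rules, autosomes only, merging within a list, dropping the narrowest hotspots (below 482 and 537 bp, the lower quartiles), other TSS rules, and the central 150 bp for GC content. Cyanase hotspots, tags of single concentrations and other data of the study were not analysed here.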

Additional observations from a re-analysis of the deposited data

How the results depend on the processing

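The order of the lists in paired share, in GC content of unpaired hotspots, in hotspots with 2 or more partners and in one-list genes was the same under every alternative given here, and of the 15 motifs CRE changed sides away from promoters. Requiring an overlap of 50% of both hotspots lowered the paired share to 59.15% of Benzonase and 49.84% of DNase I hotspots, and 50% of the narrower hotspot gave 68.7% and 59.6%. Counting hotspots within 150 bp gave 70.15% and 61.4%, autosomes alone gave 69.9% and 61.0%, and dropping the narrowest quartile of each list gave 74.8% and 64.8%. The median width ratio became 1.006 and the midpoint distance 58.0 bp when every hotspot took its partner of largest overlap, the distance became 48.5 bp with 50% of both, and the ratio became 1.015 without the narrowest quartile. That last setting also left 632 DNase I hotspots with 2 or more partners instead of 992, from a shorter list. Over all annotated genes 401 rather than 220 were DNase I only, from more genes tested. In the split by CpG content, added after the data were seen, CpG-rich genes gave 6526 in both, 1469 Benzonase only and 9 DNase I only, and the others gave 3853, 993 and 211, each from fewer genes. Median GC content of unpaired Benzonase hotspots was 56.7% in the central 150 bp, 54.55% with 50% of both and 55% without the narrowest quartile, and that of unpaired DNase I hotspots was 42.7% and 43.6% in the first pair of settings. On autosomes the median gaps were 9719 and 8520 bp. Of 634 listed gene entries, 601 kept their class with a TSS allowed within 500 bp of a hotspot, 608 with the 5′-most TSS alone, 627 over all annotated genes and 609 without the narrowest quartile. The 8 Kupffer cell markers kept theirs in all of these but the last, where 6 did. No paired analysis was possible because each enzyme has 1 pooled list. With no tag numbers in the lists, what depth limits was not tested.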
